A study of Mus musculus with 12 samples.

Results

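The cytokine, chemokine and interleukin receptor genes are the features of the count table whose gene symbol starts with Ccl, Cxcl, Cx3cl, Ccr, Cxcr, Tnfsf, Tnfrsf or Il followed by a digit and that had at least 10 counts in 3 or more of the 12 libraries. The rule left 89 features, which carry 88 gene symbols because Il7 has more than 1 feature, out of 172 features with a matching symbol and 27473 features in the table. They comprised 9 CC chemokines, 8 CXC and CX3C chemokines, 9 chemokine receptors, 14 interleukins, 29 interleukin receptors and binding proteins, 6 ligands of the TNF superfamily and 14 members of the TNF receptor superfamily. The cells were 3T3-L1 adipocytes, derived from mouse fibroblasts that store fat once differentiated with dexamethasone, IBMX and insulin. Mature adipocytes received lentivirus on day 8, were left with it for 2 days according to the sample labels, and were harvested 4 days after transduction. Each group had 3 libraries. Dnmt3a cells carried the DNA methyltransferase Dnmt3a in the pCDH expression vector, and their controls, GFP cells, carried GFP in the same vector. shDnmt3a cells carried a hairpin against Dnmt3a, and their controls, shScr cells, carried a scrambled hairpin. The sources used here do not say which hairpin against Dnmt3a it was, and all 4 groups had been exposed to lentivirus.

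Total counts per library were between 29084732 and 47341091. Dnmt3a itself had 2743, 2776 and 2730 CPM (counts scaled by library size) in Dnmt3a cells, against 93.2, 90.7 and 96.6 CPM in GFP cells. It had 41.0, 39.3 and 39.4 CPM in shDnmt3a cells, against 81.2, 86.3 and 78.5 CPM in shScr cells. Values of single libraries are given throughout for replicates 1, 2 and 3, in CPM scaled over all 12 libraries by the TMM method. Each pair of replicates differed by more than counting noise (chi-square divided by its degrees of freedom, 2.52 to 10.7). Whether a library stood apart from its group was not tested. The series text calls the libraries biological triplicates but does not state separate cultures. The p-values therefore measure only how far these libraries spread, and that spread may be technical. In a bulk culture, fewer cells of a type and less RNA per cell cannot be told apart.

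Chemokines are small secreted proteins that guide the migration of leukocytes through G protein-coupled receptors. Most interleukin receptors signal through JAK kinases and STAT transcription factors and share chains such as Il6st (gp130), whereas receptors of the IL-1, IL-17 and TNF families recruit adaptors that lead to NF-κB and AP-1. Adipocytes secrete several of these factors, among them Ccl2, Il6 and Cxcl12, and their secretion in adipose tissue has been tied to macrophage recruitment and insulin resistance in obesity.

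Expressed per kilobase of feature length, so that genes can be compared with each other, the highest levels over the 12 libraries were those of receptors and of a single chemokine. Tnfrsf1a, the main signalling receptor for TNF, had a mean of 62.6 CPM per kb. Cxcl12, the ligand of Cxcr4 and Cxcr7, had 47.8 CPM per kb, Il17rc had 34.0, Il6st had 31.3 and Il10rb had 19.4 CPM per kb. Among the CC chemokines, Ccl7, Ccl11 and Ccl2 had 16.4, 16.1 and 12.9 CPM per kb. The interleukins themselves were sparse, and Il7 and Il1f9 led them with 2.31 and 2.04 CPM per kb.

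The other 83 matching features fell under the count rule, 33 of them without a count in any library and 66 with a highest count under 5. Ccl3, Ccl4, Ccl20, Cxcl2, Il10, Il17a, Il2, Il1rn and Tnfsf11 were among these genes, which were chosen as examples after their counts were seen. Just inside the rule, the third-highest count was 12 for Il11 and Ccl5 and 10 for Tnfsf18, Tnfsf15 and Il28ra. Just outside it was 9 for Ccl24 and Il12rb1 and 8 for Il27, Il20ra and Il17d. Since counts in 3 libraries sufficed, a gene could enter without counts in all groups, as Ccl17 did through its counts in GFP and Dnmt3a cells.

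Proximal promoter sequence was looked up in a RefSeq table (build GRCm38.p6), in which 69 of the 88 symbols had an entry, 81 promoters in all. The 250 bases before each gene start were searched on both strands for a κB-like motif (GGG and TTTCC with any 2 bases between them), an AP-1 motif (TGANTCA, in which N is any base) and an interferon-response-like motif (TTTC and TTTC with any 2 bases between them). The κB-like motif was found in 7 of the 81 promoters (8.64%), against 1.41% of all 32851 promoters. The AP-1 motif was found in 14 (17.3%, against 6.75% of all) and the interferon-response-like motif in 4 (4.94%, against 2.98% of all). The median number of CpG dinucleotides in the window was 4 for these genes and 6 for all promoters. Below are the windows of 4 genes described in the results, chosen after their values were seen as examples of a κB-like or an interferon-response-like match in a secreted factor that was called on overexpression or knock-down. Windows of receptors that hold such a match and were also called in either, Il17rc, Tnfrsf1b, Tnfrsf9 and Tnfrsf25, are not shown. Capitals mark the matches to the 3 motifs on either strand, and each window reads 5′ to 3′ on the strand of its gene, ending at the base before the start.
Cxcl1 (chr5:90890995-90891244, plus strand, κB-like matches 89 and 71 bases before the start): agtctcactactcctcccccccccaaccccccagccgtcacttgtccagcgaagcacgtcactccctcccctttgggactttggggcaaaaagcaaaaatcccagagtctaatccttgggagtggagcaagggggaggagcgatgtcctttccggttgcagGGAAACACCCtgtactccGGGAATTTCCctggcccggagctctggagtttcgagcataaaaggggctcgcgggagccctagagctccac
Il6 (chr5:30012864-30013113, plus strand, AP-1 match 249 and κB-like match 44 bases before the start): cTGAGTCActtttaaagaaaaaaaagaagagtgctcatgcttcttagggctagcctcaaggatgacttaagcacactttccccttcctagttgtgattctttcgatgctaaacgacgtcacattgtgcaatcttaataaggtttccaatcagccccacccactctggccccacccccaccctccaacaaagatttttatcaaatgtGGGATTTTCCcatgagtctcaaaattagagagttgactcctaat
Cxcl10 (chr5:92348890-92349139, minus strand, interferon-response-like match 213 and AP-1 match 74 bases before the start): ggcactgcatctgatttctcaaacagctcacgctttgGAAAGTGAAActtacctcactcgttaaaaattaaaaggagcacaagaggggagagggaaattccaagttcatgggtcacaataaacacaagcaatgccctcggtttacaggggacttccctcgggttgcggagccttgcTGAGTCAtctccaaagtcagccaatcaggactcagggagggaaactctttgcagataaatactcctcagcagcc
Ccl9 (chr11:83578637-83578886, minus strand, AP-1 match 53 and κB-like match 35 bases before the start): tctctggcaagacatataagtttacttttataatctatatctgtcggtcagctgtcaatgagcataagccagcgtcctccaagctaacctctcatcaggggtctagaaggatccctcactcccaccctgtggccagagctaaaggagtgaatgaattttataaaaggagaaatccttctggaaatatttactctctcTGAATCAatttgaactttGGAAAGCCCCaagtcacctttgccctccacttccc
A match is a description of the letters and says nothing of binding. The 4 genes did not behave alike in the libraries: Cxcl1, Il6 and Cxcl10 were lower in Dnmt3a than in GFP cells, while Cxcl1 and Ccl9 were higher and Cxcl10 lower in shDnmt3a than in shScr cells.

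The comparison of Dnmt3a with GFP cells asked what excess Dnmt3a does to the adipocyte transcriptome, and that of shDnmt3a with shScr cells what its loss does. A gene was called higher or lower when its p from the quasi-likelihood test of edgeR, adjusted by Benjamini-Hochberg over every feature tested, was under 0.05. On overexpression 85 of the 89 members could be tested, of which 5 were higher (5.88%) and 19 were lower (22.4%) in Dnmt3a cells. Over all 14168 features tested, 14.3% were higher and 12.9% lower (27.2% in either direction). The median log2 fold change was −0.16 over the members and −0.0066 over all features. On knock-down 84 members could be tested, of which 20 were higher (23.8%) and 14 lower (16.7%) in shDnmt3a cells, against 23.3% and 22.5% of all 14115 features (45.8% in either direction). The median on knock-down was 0.028 over the members. It was −0.059 under a stricter filter of 1 CPM in 3 libraries, and 0.0069, 0.048 and 0.053 without shDnmt3a replicate 1, shDnmt3a replicate 2 and shScr replicate 2. Changes of at least 1 on the log2 scale were few on overexpression, where 0 members were higher and 3 lower by that much (0.169% and 0.558% of all features, 0.727% in either direction). The 3 were Ccl2, Il1rl1 and Il21. On knock-down they were 7 higher and 2 lower (2.8% and 0.871% of all features, 3.67% in either direction). Of the 38 members with a mean of at least 100 counts, 5 were higher and 13 lower on overexpression and 11 higher and 11 lower on knock-down. Of those with a lower mean, 0 were higher and 6 lower of 47 tested on overexpression, and 9 were higher and 3 lower of 46 on knock-down. The same split was not made over all features, so these split counts cannot be set against a background share.

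**Figure D1:**
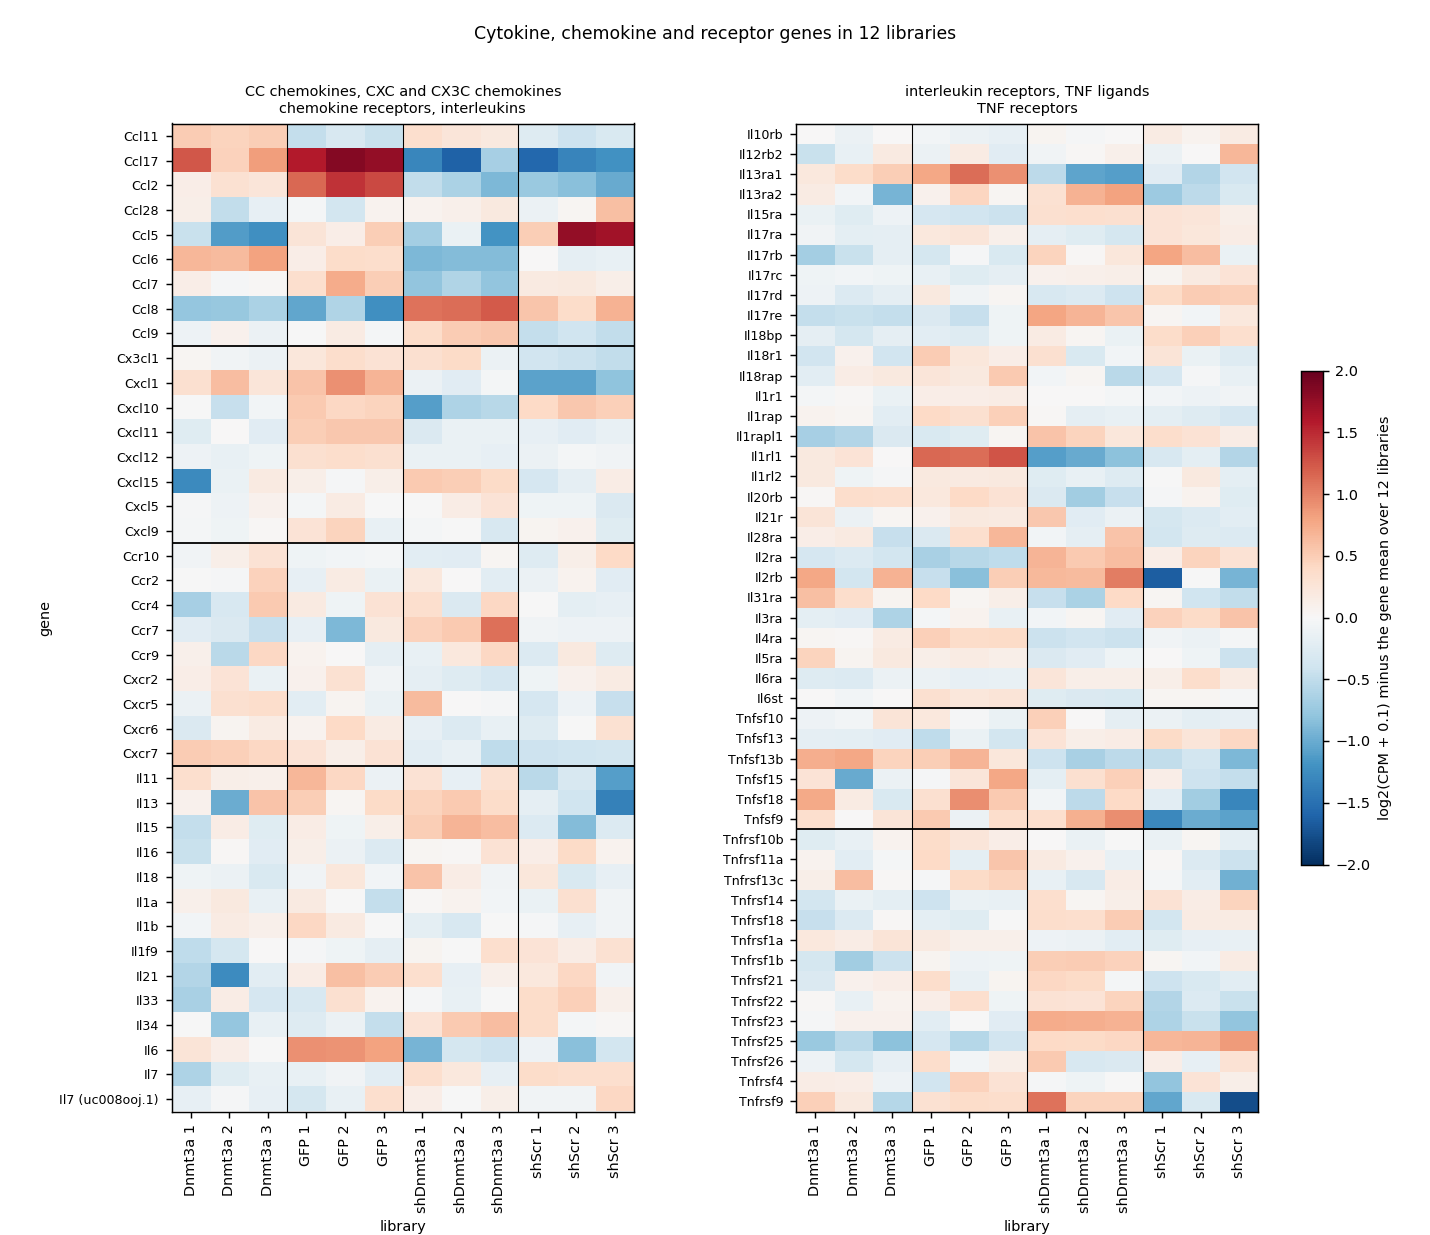
Level of each of the 89 members (rows, grouped by class with black lines) in the 12 libraries (columns, replicates 1 to 3 of Dnmt3a, GFP, shDnmt3a and shScr), as log2(CPM + 0.1) minus the mean of that gene over the 12 libraries. Ccl2, Ccl17, Il1rl1 and Il6 were highest in the 3 GFP libraries, while Tnfrsf23 and Ccl8 were highest in the 3 shDnmt3a libraries.

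Among the CC chemokines, the monocyte chemoattractant gene Ccl2 had 9.46, 10.6 and 10.2 CPM in Dnmt3a cells, against 19.2, 23.6 and 21.8 CPM in GFP cells. Every Dnmt3a library lay below every GFP library, and the log2 fold change was −1.08 ± 0.079 (SE; edgeR adjusted p = 7.12e-13). On knock-down Ccl2 had 6.07, 5.52 and 4.60 CPM in shDnmt3a cells, against 5.10, 4.81 and 4.24 CPM in shScr cells, and the groups overlapped (0.19 ± 0.12, edgeR adjusted p = 0.204). Ccl11 (eotaxin), which attracts eosinophils, moved the other way on overexpression. It had 23.9, 22.7 and 23.5 CPM in Dnmt3a cells, against 12, 13.3 and 12.3 CPM in GFP cells, and was thus higher in each Dnmt3a library (0.90 ± 0.067 on the log2 scale, edgeR adjusted p = 9.91e-13). It was also higher in each shDnmt3a library, with 21.2, 19.8 and 19.1 CPM against 14, 12.5 and 13.5 CPM in shScr cells (0.59 ± 0.069, edgeR adjusted p = 8.47e-07). Ccl11 was the member higher in both comparisons.

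Ccl7, another monocyte chemoattractant and the neighbour of Ccl2, was lower in both. It had 13.6, 12.2 and 12.8 CPM in Dnmt3a cells, against 15.8, 20.9 and 17.7 CPM in GFP cells (log2 fold change −0.48 ± 0.082, edgeR adjusted p = 1.78e-05). It had 7.18, 8.22 and 7.16 CPM in shDnmt3a cells, against 14.1, 14.3 and 13.6 CPM in shScr cells (−0.89 ± 0.081, edgeR adjusted p = 2.88e-08). The groups were apart in both comparisons, further so on knock-down. Ccl8, the fourth gene of this stretch and a chemoattractant of monocytes and other leukocytes, had 4.48, 4.56 and 4.93 CPM in shDnmt3a cells, against 3.07, 2.68 and 3.37 CPM in shScr cells, where it was higher in each library (0.62 ± 0.12, edgeR adjusted p = 0.000338). In Dnmt3a cells it had 1.15, 1.17 and 1.29 CPM, within the range of 0.822 to 1.32 CPM in GFP cells.

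Ccl6 and Ccl9, rodent CC chemokines that act on monocytes and macrophages and lie next to each other, moved in opposite directions on knock-down. Ccl6 had 7.77, 7.96 and 7.95 CPM in shDnmt3a cells, against 14.7, 12.9 and 13.1 CPM in shScr cells, with a log2 fold change of −0.78 ± 0.080 (edgeR adjusted p = 1.57e-07). Ccl9 had 25.5, 28.3 and 28.6 CPM in shDnmt3a cells, against 14.1, 15 and 14 CPM in shScr cells (0.94 ± 0.066, edgeR adjusted p = 7.77e-10). Neither pair of groups overlapped. On overexpression Ccl6 had 23.1, 22.6 and 25.6 CPM in Dnmt3a cells, against 16.0, 18.7 and 18.5 CPM in GFP cells (0.43 ± 0.069, edgeR adjusted p = 7.32e-06), which made it the member higher on overexpression and lower on knock-down. Ccl9 had 18.3, 21.1 and 18.1 CPM in Dnmt3a cells and 19.7, 22.2 and 19.2 CPM in GFP cells, which overlapped (−0.086 ± 0.070, edgeR adjusted p = 0.394). Ccl5, a T cell and monocyte chemoattractant, was lower on knock-down at low counts, with 3, 7 and 1 counts in the shDnmt3a libraries and 11, 34 and 26 in the shScr libraries. The ratio of their summed counts, scaled by library size, was 0.143 (95% counting interval 0.0681 to 0.271, which covers counting error only). The edgeR adjusted p was 0.00017. The GFP libraries had 12, 9 and 11 counts and the Dnmt3a libraries 4, 1 and 1, and Ccl5 was not tested on overexpression. Ccl17, a ligand of Ccr4, had 0.808, 0.424 and 0.582 CPM in Dnmt3a cells, against 1.05, 1.27 and 1.19 CPM in GFP cells (−0.92 ± 0.26, edgeR adjusted p = 0.00706). It had 1 to 5 counts in each shDnmt3a or shScr library and was not tested there.

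Of the 8 CXC and CX3C chemokines, 5 were lower (62.5%, against 12.9% of all features) and 0 higher (against 14.3%) in Dnmt3a cells. All 8 had a negative log2 fold change, with a median of −0.39. None was higher at an unadjusted edgeR p under 0.05 or with DESeq2. On overexpression DESeq2 gave 16 of all the members no adjusted p, and its counts take these as not called. Cxcl12, which retains stem and progenitor cells in their niches, was the most abundant and had 316, 306 and 320 CPM in Dnmt3a cells, against 424, 434 and 423 CPM in GFP cells. The 2 ranges were far apart beside their spread (−0.44 ± 0.037, edgeR adjusted p = 3.03e-11). The shScr controls were also lower than GFP cells, by a log2 fold change of −0.40. On knock-down Cxcl12 had 308, 310 and 301 CPM in shDnmt3a cells, against 312, 329 and 322 CPM in shScr cells, all lower but without a call (−0.069 ± 0.034, edgeR adjusted p = 0.113). Cxcl10, an interferon-induced ligand of Cxcr3, was lower in both comparisons. It had 2.31, 1.66 and 2.23 CPM in Dnmt3a cells, against 3.36, 3.10 and 3.17 CPM in GFP cells (−0.62 ± 0.15, edgeR adjusted p = 0.002). It had 1.03, 1.47 and 1.55 CPM in shDnmt3a cells, against 3.09, 3.41 and 3.27 CPM in shScr cells (−1.27 ± 0.17, edgeR adjusted p = 3.40e-06). The control levels of Cxcl10 in GFP and shScr cells were close to each other.

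Cxcl1, which attracts neutrophils through Cxcr2, was lower in Dnmt3a cells and higher in shDnmt3a cells. It had 9.23, 11.4 and 8.78 CPM in Dnmt3a cells, against 11, 13.9 and 11.8 CPM in GFP cells, and these ranges overlapped (−0.33 ± 0.094, edgeR adjusted p = 0.00772). The edgeR adjusted p was 0.0842 without Dnmt3a replicate 3 and 0.0894 without GFP replicate 2. On knock-down it had 6.77, 6.27 and 7.13 CPM in shDnmt3a cells, against 3.47, 3.47 and 4.18 CPM in shScr cells, with all 3 shDnmt3a libraries above the controls (0.86 ± 0.11, edgeR adjusted p = 2.77e-06). Cx3cl1 (fractalkine), the membrane-bound ligand of Cx3cr1, followed the same directions. It had 7.27, 6.72 and 6.50 CPM in Dnmt3a cells, against 8.25, 9.06 and 8.64 CPM in GFP cells (−0.34 ± 0.092, edgeR adjusted p = 0.00532). It had 8.83, 9.28 and 6.54 CPM in shDnmt3a cells, against 5.42, 5.25 and 4.98 CPM in shScr cells (0.66 ± 0.12, edgeR adjusted p = 0.000125). This shDnmt3a level of Cx3cl1 overlapped that in GFP cells, and every shScr library lay below every GFP library. Cxcl11, a ligand of Cxcr3 and Cxcr7, was lower in Dnmt3a cells, with 0.810 ± 0.095 CPM against 1.35 ± 0.024 CPM in GFP cells (SD, n = 3 each; edgeR adjusted p = 0.0127, and 0.0529 without Dnmt3a replicate 3). Cxcl5, which also acts through Cxcr2, had 9.47 ± 0.901 CPM in shDnmt3a cells and 7.71 ± 0.623 CPM in shScr cells (SD, n = 3 each; 0.29 ± 0.094, edgeR adjusted p = 0.0158). That call was lost without shDnmt3a replicate 3 (edgeR adjusted p = 0.0882) and without shScr replicate 3 (0.08).

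**Figure D2:**
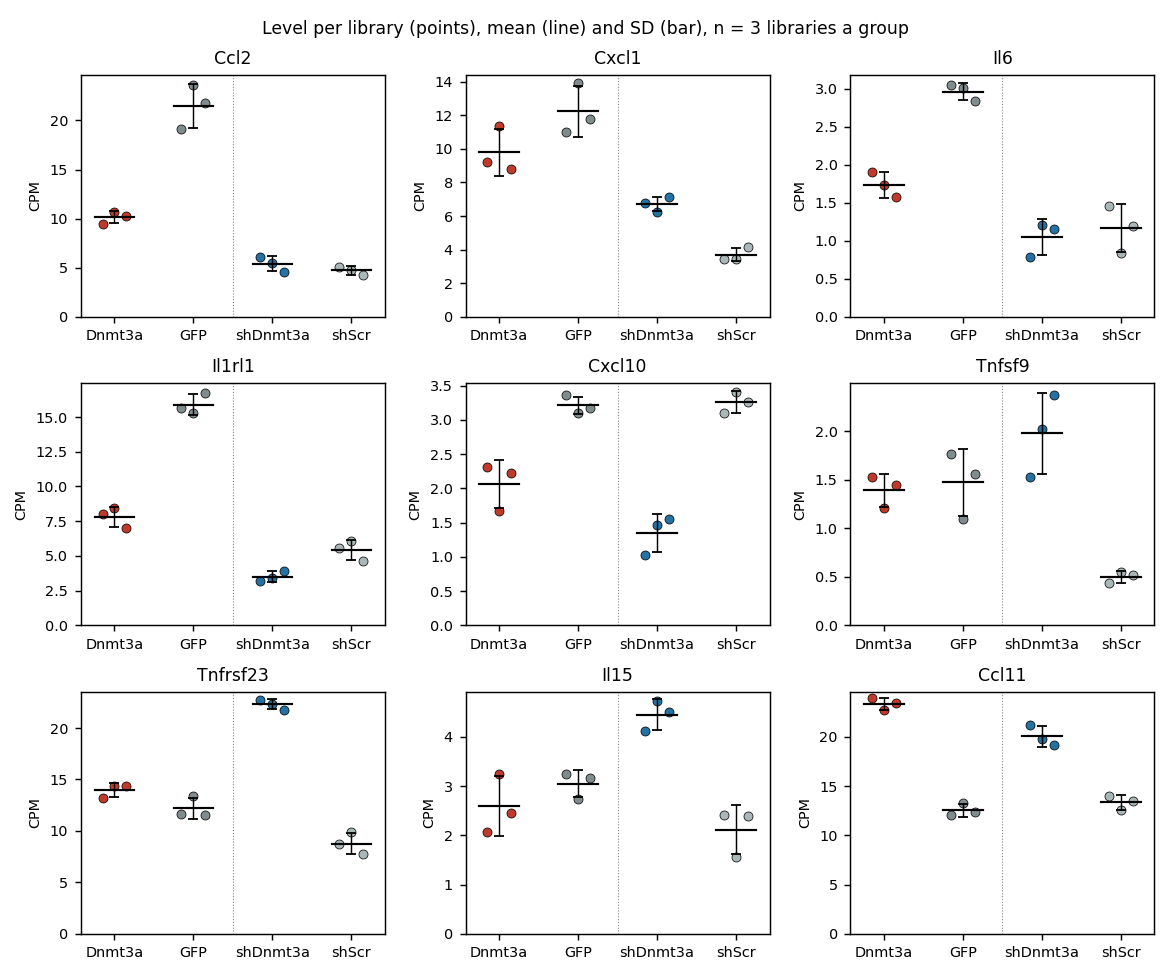
CPM of 9 members in each library (points), with the group mean (line) and SD (bar) of 3 libraries, for Dnmt3a, GFP, shDnmt3a and shScr from left to right; each panel has its own linear axis from 0. Ccl2, Il6 and Il1rl1 had their highest levels in GFP cells and lower ones in all other groups, Ccl11 was higher in both manipulated groups than in their controls, and Tnfrsf23 and Il15 were highest in shDnmt3a cells.

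Of 9 chemokine receptors tested, 1 was higher and 0 lower in Dnmt3a cells, and 1 was higher and 1 lower in shDnmt3a cells. None was lower in Dnmt3a cells at an unadjusted edgeR p under 0.05. DESeq2 called 0 lower, but it took members without an adjusted p as not called. Over all features tested, 27.2% were called in either direction on overexpression and 45.8% on knock-down. The receptors other than Cxcr7 and Cxcr2 had means of 14.5 to 52.8 counts over the 12 libraries, which limits their calls. Cxcr7, an atypical receptor that binds and removes Cxcl12, had 20.2, 19.7 and 19 CPM in Dnmt3a cells, against 17.2, 15.3 and 17.4 CPM in GFP cells. It was higher in each Dnmt3a library (0.24 ± 0.067, edgeR adjusted p = 0.00621), while its ligand Cxcl12 was lower. On knock-down Cxcr7 had 12.2, 12.7 and 9.92 CPM in shDnmt3a cells and 10.6, 10.7 and 10.9 CPM in shScr cells, which overlapped (0.12 ± 0.088, edgeR adjusted p = 0.304). Cxcr2, the neutrophil receptor for Cxcl1 and Cxcl5, had 3.45, 3.25 and 3.10 CPM in shDnmt3a cells, against 3.70, 4.18 and 4.40 CPM in shScr cells (−0.32 ± 0.12, edgeR adjusted p = 0.0377). Its call was lost in each fit that left out 1 library, other than the fit without shScr replicate 1, with edgeR adjusted p of 0.0506 to 0.119, and with DESeq2 (adjusted p = 0.0987). Ccr7, a receptor for lymph node homing chosen after its values were seen, had 0.668, 0.699 and 1.10 CPM in shDnmt3a cells and 0.430, 0.420 and 0.421 CPM in shScr cells. It was higher on knock-down (0.94 ± 0.29, edgeR adjusted p = 0.0123), but not without shDnmt3a replicate 3 (0.69, edgeR adjusted p = 0.0955).

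Of 14 interleukins tested on overexpression, 2 were lower (14.3%, against 12.9% of all features) and 0 higher (against 14.3%) in Dnmt3a cells. No interleukin was higher there at an unadjusted edgeR p under 0.05. DESeq2 called 0 higher, but it took members without an adjusted p as not called. Il6, a cytokine with a receptor signalling through Il6st, had 1.90, 1.73 and 1.57 CPM in Dnmt3a cells, against 3.04, 3.00 and 2.83 CPM in GFP cells. All Dnmt3a libraries lay below all GFP libraries (−0.77 ± 0.16, edgeR adjusted p = 0.000273). In shDnmt3a cells Il6 had 0.780, 1.21 and 1.16 CPM, against 1.46, 0.840 and 1.2 CPM in shScr cells, with overlapping groups (−0.14 ± 0.24, edgeR adjusted p = 0.68). Il21, a T cell cytokine chosen after its values were seen, had a mean of 12.2 counts over the 6 libraries and was lower in Dnmt3a cells (−1.34 ± 0.41, edgeR adjusted p = 0.0134). Its call was lost without Dnmt3a replicate 2 (edgeR adjusted p = 0.0869) and without GFP replicate 2 (0.0525). Il21 did not reach 1 CPM in any library, so a filter of 1 CPM in 3 libraries left it untested. DESeq2 called 1 interleukin lower on overexpression, against 2 in edgeR.

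On knock-down 2 of 13 interleukins were higher (15.4%, against 23.3% of all features) and 0 lower (against 22.5%). Likewise 0 were lower at an unadjusted edgeR p under 0.05 and with DESeq2. Il15, which supports natural killer and memory T cells and is also made by non-immune cells, had 4.12, 4.73 and 4.51 CPM in shDnmt3a cells, against 2.41, 1.55 and 2.40 CPM in shScr cells. It was higher in each shDnmt3a library (1.09 ± 0.15, edgeR adjusted p = 7.83e-06). In Dnmt3a cells it had 2.08, 3.25 and 2.45 CPM, against 3.25, 2.73 and 3.17 CPM in GFP cells, and these overlapped (−0.25 ± 0.16, edgeR adjusted p = 0.248). Its receptor chain Il15ra, which presents Il15 to neighbouring cells, had 22.4, 20.9 and 23.1 CPM in Dnmt3a cells, against 19.5, 19 and 18.4 CPM in GFP cells (0.23 ± 0.063, edgeR adjusted p = 0.00546). On knock-down Il15ra had 30.9, 31.3 and 31.0 CPM in shDnmt3a cells, above the 29.7, 29.4 and 26.7 CPM in shScr cells but without a call (0.12 ± 0.056, edgeR adjusted p = 0.0902). Il13, a type 2 cytokine chosen after its values were seen, was higher on knock-down with a mean of 9.17 counts over the 6 libraries (1.41 ± 0.46, edgeR adjusted p = 0.0167). That call was lost without shDnmt3a replicate 2 (edgeR adjusted p = 0.0547), without shScr replicate 3 (0.0793) and with DESeq2 (0.066). The inflammatory interleukins Il1a, Il1b, Il18 and Il33 were not called in either comparison. Il1b, for example, had 1.93, 2.26 and 2.18 CPM in Dnmt3a cells and 2.71, 2.31 and 2.01 CPM in GFP cells.

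The interleukin receptors were the largest class, and their chains moved separately. On overexpression 2 of 28 were higher (7.14%, against 14.3% of all features) and 7 lower (25%, against 12.9%). On knock-down 4 were higher (14.3%, against 23.3% of all features) and 8 lower (28.6%, against 22.5%). The shared chain Il6st, through which Il6, Il11 and related cytokines signal, had 241, 232 and 242 CPM in Dnmt3a cells, against 298, 281 and 287 CPM in GFP cells (−0.27 ± 0.039, edgeR adjusted p = 1.02e-06). It had 203, 196 and 195 CPM in shDnmt3a cells, against 246, 247 and 236 CPM in shScr cells (−0.30 ± 0.035, edgeR adjusted p = 1.16e-06). Both differences were small on the fold scale and large beside the spread between libraries. The Il6-binding chain Il6ra was not called in either comparison, with 15.8, 15.7 and 17.5 CPM in Dnmt3a cells against 17.5, 17.0 and 17.2 CPM in GFP cells.

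In the IL-1 receptor family, Il1rl1 (ST2), the receptor for Il33, had 8.02, 8.42 and 7.01 CPM in Dnmt3a cells, against 15.6, 15.3 and 16.8 CPM in GFP cells. This gave a log2 fold change of −1.03 ± 0.082 (edgeR adjusted p = 6.37e-12). It was lower on knock-down as well, with 3.20, 3.40 and 3.92 CPM in shDnmt3a cells against 5.59, 6.04 and 4.63 CPM in shScr cells (−0.64 ± 0.13, edgeR adjusted p = 0.000363). Its co-receptor Il1rap, which also serves the IL-1 receptor, had 18.5, 18.1 and 15.2 CPM in Dnmt3a cells, against 23.4, 22.1 and 24.5 CPM in GFP cells (−0.43 ± 0.070, edgeR adjusted p = 9.33e-06). On knock-down Il1rap was not called, with 17.9, 15.5 and 16.0 CPM in shDnmt3a cells just above the 15.4, 14.8 and 13.9 CPM in shScr cells (0.16 ± 0.073, edgeR adjusted p = 0.0855). The signalling receptor Il1r1, chosen after its values were seen, was lower in Dnmt3a cells by a small margin, with 45.6 ± 2.55 CPM against 51.5 ± 0.304 CPM in GFP cells (SD, n = 3 each; −0.18 ± 0.048, edgeR adjusted p = 0.00567). Without Dnmt3a replicate 3 its edgeR adjusted p was 0.0721.

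In the IL-17 receptor family, the common chain Il17ra, chosen after its values were seen, was lower in both comparisons. It had 8.22, 7.46 and 7.62 CPM in Dnmt3a cells, against 9.97, 10.2 and 9.26 CPM in GFP cells (−0.33 ± 0.087, edgeR adjusted p = 0.00345). It had 7.60, 7.26 and 6.71 CPM in shDnmt3a cells, against 10.4, 10.1 and 9.55 CPM in shScr cells (−0.48 ± 0.085, edgeR adjusted p = 0.000121). Il17rd, an inhibitor of receptor signalling, had 6.15, 6.39 and 5.75 CPM in shDnmt3a cells, well below the 10.1, 11.1 and 10.8 CPM in shScr cells (−0.80 ± 0.087, edgeR adjusted p = 2.84e-07). In Dnmt3a cells it had 7.21, 6.40 and 6.83 CPM, below the 8.90, 7.32 and 7.96 CPM in GFP cells but without a call (−0.24 ± 0.096, edgeR adjusted p = 0.0611). Il17re, the Il17c-binding chain and chosen after its values were seen, was higher on knock-down, with 12.1, 11.2 and 10.2 CPM in shDnmt3a cells against 7.16, 6.67 and 8.06 CPM in shScr cells (0.62 ± 0.092, edgeR adjusted p = 1.75e-05). Il17rc, which pairs with Il17ra and lies next to Il17re, had 74.2, 76.2 and 74.4 CPM in Dnmt3a cells, against 71.4, 67.2 and 69.9 CPM in GFP cells (0.11 ± 0.042, edgeR adjusted p = 0.0445). That call was lost in each fit that left out 1 of the 6 libraries other than GFP replicate 1, with edgeR adjusted p of 0.0681 to 0.137. It was also lost with DESeq2 (adjusted p = 0.0579) and, in edgeR, with the filter of 1 CPM (0.051), without a filter (0.0535) and in a fit of all 12 libraries (0.0634).

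Il4ra, the receptor chain shared by Il4 and Il13, was lower in both comparisons. It had 28.6, 28.4 and 31.2 CPM in Dnmt3a cells, against 38.6, 36.1 and 36.2 CPM in GFP cells (−0.32 ± 0.055, edgeR adjusted p = 2.02e-05). It had 20.6, 21.2 and 20.7 CPM in shDnmt3a cells, against 26.4, 25.7 and 27.1 CPM in shScr cells (−0.34 ± 0.057, edgeR adjusted p = 5.42e-05). Its partner Il13ra1 had 1.13, 1.27 and 1.39 CPM in Dnmt3a cells, against 1.72, 2.21 and 1.90 CPM in GFP cells (−0.61 ± 0.19, edgeR adjusted p = 0.0156). The edgeR adjusted p for Il13ra1 was 0.0811 without Dnmt3a replicate 1 and 0.0802 without GFP replicate 2, and on knock-down the gene was not called (0.129). The decoy receptor Il13ra2, which binds Il13 tightly, had 1.39, 1.86 and 2.00 CPM in shDnmt3a cells, against 0.630, 0.735 and 0.874 CPM in shScr cells, and was higher in each library (1.24 ± 0.22, edgeR adjusted p = 0.000115). In Dnmt3a cells Il13ra2 had 1.24, 1.06 and 0.531 CPM, overlapping the 1.18, 1.51 and 1.13 CPM in GFP cells.

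The other receptors called on knock-down, chosen after their values were seen, were the signalling chain Il2rb, the alpha chains Il2ra and Il3ra, the secreted Il18 inhibitor Il18bp, and Il10rb, the chain shared by the receptors for Il10 and related cytokines. Il2rb had 14, 16 and 19 counts in the shDnmt3a libraries, against 0, 8 and 2 in the shScr libraries. The ratio of their summed counts, scaled by library size, was 4.51 with a 95% counting interval of 2.26 to 9.99 (edgeR adjusted p = 0.00345). The fitted log2 fold change of 2.14 became 3.69 without shScr replicate 2. Il2ra was higher with 11.3 ± 0.576 CPM in shDnmt3a cells and 9.06 ± 0.990 CPM in shScr cells (SD, n = 3 each; 0.31 ± 0.089, edgeR adjusted p = 0.00752). Il3ra was lower with 2.21 ± 0.222 CPM against 3.28 ± 0.230 CPM in shScr cells (SD, n = 3 each; edgeR adjusted p = 0.00263), and Il18bp with 5.00 ± 0.530 CPM against 6.46 ± 0.326 CPM in shScr cells (edgeR adjusted p = 0.00659). Il10rb was lower by 0.12 on the log2 scale (a log2 fold change of −0.12, edgeR adjusted p = 0.0298). The Il10rb call was lost without shDnmt3a replicate 2 or 3 and without shScr replicate 1 or 3, with edgeR adjusted p of 0.0679 to 0.136.

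The ligands of the TNF superfamily showed 1 call on knock-down and 0 on overexpression among 4 tested, against 45.8% and 27.2% of all features. On overexpression 0 of the 4 had an unadjusted edgeR p under 0.05. DESeq2 called 0, again with members without an adjusted p taken as not called. Tnfsf9 (4-1BB ligand), a costimulatory ligand of T cells, had 1.53, 2.03 and 2.37 CPM in shDnmt3a cells, against 0.430, 0.552 and 0.518 CPM in shScr cells. It was higher in each shDnmt3a library by a log2 fold change of 1.97 ± 0.24 (edgeR adjusted p = 1.19e-06). Its receptor Tnfrsf9 (4-1BB) moved in the same direction, with 1.34, 0.820 and 0.818 CPM in shDnmt3a cells against 0.229, 0.446 and 0.0971 CPM in shScr cells (1.86 ± 0.37, edgeR adjusted p = 0.000372). In Dnmt3a and GFP cells neither was called. Tnfsf9 had 1.53, 1.2 and 1.44 CPM in Dnmt3a cells and 1.76, 1.09 and 1.56 CPM in GFP cells, so that its level in shDnmt3a cells overlapped that in GFP cells. The B cell survival factors Tnfsf13 and Tnfsf13b and the death ligand Tnfsf10 were not called in either comparison.

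Of the 14 TNF receptors, 6 were higher (42.9%, against 23.3% of all features) and 1 lower (7.14%, against 22.5%) in shDnmt3a cells. In Dnmt3a cells 0 were higher (against 14.3% of all features) and 2 lower (14.3%, against 12.9%). On overexpression 2 were higher at an unadjusted edgeR p under 0.05. DESeq2 called 0 higher, with members without an adjusted p taken as not called. Tnfrsf23 and Tnfrsf22, which in mice bind the death ligand Tnfsf10 without a signalling death domain, had the smallest adjusted p of the class on knock-down. Tnfrsf23 had 22.7, 22.4 and 21.8 CPM in shDnmt3a cells, against 8.71, 9.85 and 7.74 CPM in shScr cells (1.34 ± 0.079, edgeR adjusted p = 5.11e-11). Tnfrsf22 had 7.55, 7.43 and 8.37 CPM in shDnmt3a cells, against 4.07, 5.04 and 4.47 CPM in shScr cells (0.78 ± 0.11, edgeR adjusted p = 5.33e-06). In both cases the 3 shDnmt3a libraries lay above the 3 shScr libraries. On overexpression Tnfrsf23 had 13.2, 14.3 and 14.4 CPM in Dnmt3a cells and 11.7, 13.4 and 11.5 CPM in GFP cells and was not called (0.20 ± 0.077, edgeR adjusted p = 0.0505). The third gene of their stretch, Tnfrsf26, also chosen after its values were seen, had 1.11, 0.579 and 0.592 CPM in shDnmt3a cells and 0.831, 0.657 and 0.939 CPM in shScr cells and was not called. These 3 genes resemble each other in sequence, so reads could have been shared between them.

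Tnfrsf1b, the second TNF receptor, found mostly on immune and endothelial cells, was lower in Dnmt3a and higher in shDnmt3a cells and was chosen after its values were seen. It had 9.29, 7.32 and 8.81 CPM in Dnmt3a cells, against 12.4, 11 and 11.2 CPM in GFP cells (−0.43 ± 0.088, edgeR adjusted p = 0.000264). It had 16.6, 17.0 and 16.3 CPM in shDnmt3a cells, against 12.1, 11.5 and 13.4 CPM in shScr cells (0.44 ± 0.072, edgeR adjusted p = 5.39e-05). The groups were apart in both comparisons. Tnfrsf1a, the ubiquitous TNF receptor and the most abundant member per kilobase, was not called in either, with 155, 149 and 159 CPM in Dnmt3a cells against 151, 143 and 144 CPM in GFP cells. Tnfrsf25, a death domain receptor, was lower on knock-down, with 6.38, 6.37 and 6.46 CPM in shDnmt3a cells against 7.76, 7.77 and 8.84 CPM in shScr cells (−0.34 ± 0.091, edgeR adjusted p = 0.00436). Tnfrsf10b, the mouse death receptor for Tnfsf10 and chosen after its values were seen, was lower on overexpression, with 9.77 ± 1.13 CPM in Dnmt3a cells against 12.5 ± 1.05 CPM in GFP cells (SD, n = 3 each; −0.35 ± 0.087, edgeR adjusted p = 0.00202). Tnfrsf21 and Tnfrsf18 completed the receptors called higher on knock-down, with edgeR adjusted p of 0.0176 and 0.0483. The Tnfrsf21 call was lost without shDnmt3a replicate 1 or 2 or shScr replicate 1 (edgeR adjusted p = 0.0554 to 0.076), and with DESeq2 (0.0614). The Tnfrsf18 call was lost without any 1 of the 3 shDnmt3a libraries or shScr replicate 1 (edgeR adjusted p = 0.0698 to 0.249) and with DESeq2 (0.109), and its log2 fold change of 0.41 was 0.24 without shScr replicate 1.

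**Figure D3:**
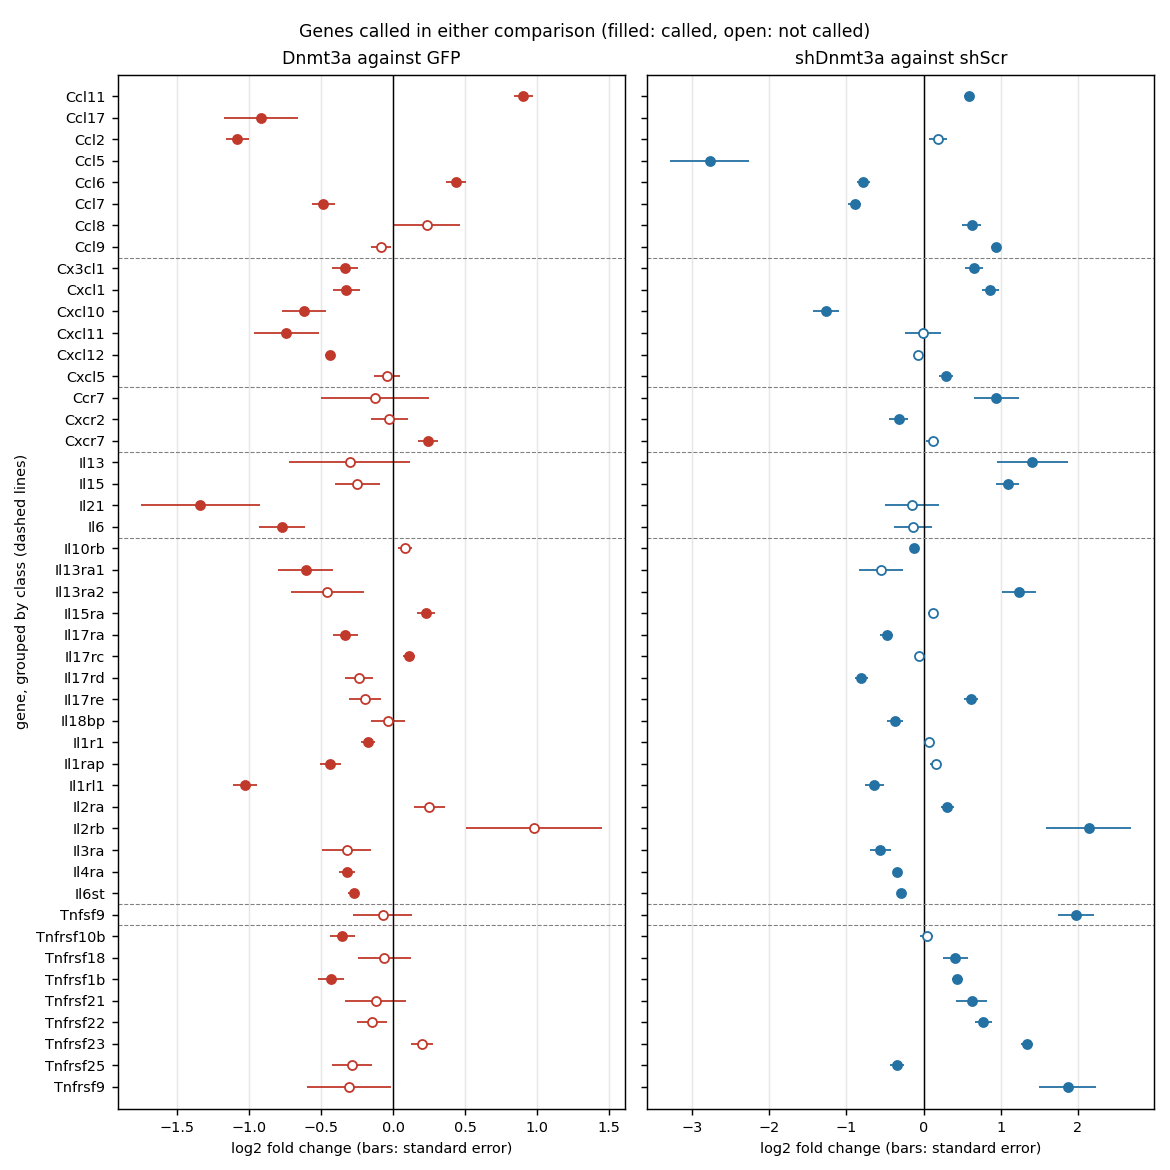
Log2 fold change (points) with its standard error (bars) for each member called in at least 1 of Dnmt3a against GFP cells (left) and shDnmt3a against shScr cells (right); filled points were called at an edgeR adjusted p under 0.05, open points were not, and a missing point was not tested (Ccl5 on the left, Ccl17 on the right). On the left most filled points lie below 0 (19 of 24), on the right they lie on both sides (20 higher, 14 lower), and each panel has its own linear axis.

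Of 83 members tested both on overexpression and on knock-down, which share no library, 11 were called in both. Lower in both were 6 members (7.23%), namely Ccl7, Cxcl10, Il17ra, Il1rl1, Il4ra and Il6st, beside 3.1% of the 13893 features tested in both. Lower on overexpression and higher on knock-down were 3 members (3.61%, against 3.63% of all features), namely Cxcl1, Cx3cl1 and Tnfrsf1b. Higher on overexpression and lower on knock-down was 1 member, Ccl6 (1.2%, against 6.03% of all features), and higher in both was 1 member, Ccl11 (1.2%, against 3.64%). Without shScr replicate 1, Il17rc joined Ccl6, for a count of 2. The count of members higher in both was 2 with Tnfrsf23 without Dnmt3a replicate 1 or GFP replicate 2, with Il2rb without GFP replicate 3, and with Cxcr7 without shDnmt3a replicate 3.

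The 2 controls differed from each other in these genes, which bears on where each comparison started. The controls differ in both vector and insert, which cannot be told apart, and this comparison shares libraries with both others, so the values are given side by side. Of 86 members tested in a fit of all 12 libraries, 19 were higher (22.1%) and 29 lower (33.7%) in shScr than in GFP cells, against 23.7% and 22.8% of all 14491 features (46.5% in either direction). By at least 1 on the log2 scale, 3 were higher and 11 lower (1.48% and 2.65% of all features, 4.13% in either direction). The median log2 fold change was −0.22 over the members and −0.0060 over all features. Ccl2 had 5.10, 4.81 and 4.24 CPM in shScr cells, against 19.2, 23.6 and 21.8 CPM in GFP cells (−2.17 ± 0.097, edgeR adjusted p = 3.23e-17). The levels of Ccl2 in all 3 groups other than GFP thus lay below those in GFP cells. Cxcl1 had 3.47, 3.47 and 4.18 CPM in shScr cells, against 11, 13.9 and 11.8 CPM in GFP cells (−1.72 ± 0.11, edgeR adjusted p = 2.23e-13), and its level in shDnmt3a cells, though above that in shScr cells, was still below that in GFP cells.

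Il1rl1, Il6 and Il13ra1 were lower in shScr cells in the same manner, by log2 fold changes of −1.54 ± 0.095, −1.35 ± 0.18 and −1.45 ± 0.21 (edgeR adjusted p = 5.04e-14, 4.80e-07 and 1.61e-06). Ccl17 was close to absent from both hairpin groups. It had 1, 2 and 2 counts in the shScr libraries, against 50, 51 and 42 in the GFP libraries. The ratio of the summed counts, scaled by library size, was 0.0415 with a 95% counting interval of 0.0133 to 0.0991. Tnfsf9 and Tnfrsf9, higher in shDnmt3a than in shScr cells, were lower in shScr than in GFP cells (−1.55 ± 0.25 and −1.48 ± 0.38, edgeR adjusted p = 8.33e-06 and 0.00201). So were Ccl9, Cx3cl1, Il13, Il13ra2, Tnfrsf22 and Tnfrsf23 (log2 fold changes −0.49, −0.72, −1.24, −0.77, −0.57 and −0.46). Ccl8, Il2ra and Il17re, also higher in shDnmt3a than in shScr cells, were instead higher in shScr than in GFP cells. Ccl11, Ccr7, Cxcl5, Il2rb, Tnfrsf1b, Tnfrsf18 and Tnfrsf21 were not called there. The Il13, Il13ra2 and Il17re calls were each lost without at least 1 single library. Tnfsf13b, encoding the B cell factor BAFF, had 0.544, 0.604 and 0.388 CPM in shScr cells, against 1.18, 1.37 and 0.963 CPM in GFP cells (−1.17 ± 0.24, edgeR adjusted p = 0.000232). Higher in shScr cells were Ccl8, with 3.07, 2.68 and 3.37 CPM against 0.944, 1.32 and 0.822 CPM in GFP cells (1.56 ± 0.17, edgeR adjusted p = 6.98e-09), and Tnfrsf25, with 7.76, 7.77 and 8.84 CPM against 3.82, 3.23 and 3.68 CPM in GFP cells (1.18 ± 0.10, edgeR adjusted p = 9.38e-11). Ccl5 (log2 fold change 1.39, at low counts), Il3ra (0.53), Il17rd (0.41), Il18bp (0.60) and Il10rb (0.25) were also higher in shScr cells. These genes were lower in shDnmt3a than in shScr cells, as was Tnfrsf25. Of the others lower on knock-down, Ccl6, Ccl7, Il1rl1, Il4ra and Il6st were lower in shScr than in GFP cells. Cxcl10, Cxcr2 and Il17ra were not called there. Il15 was lower in shScr cells (−0.54 ± 0.17, edgeR adjusted p = 0.00901), but not without shScr replicate 2 (−0.34, edgeR adjusted p = 0.112). Cxcl10 and Ccl11 had like levels in both controls and were not called there. Of the other members lower in Dnmt3a than in GFP cells, several were also lower in shScr than in GFP cells. Their log2 fold changes in shScr cells were −0.40 for Cxcl12, −0.76 for Cxcl11, −0.66 for Il1rap, −0.48 for Il4ra and −0.36 for Ccl7. They were −0.34 for Tnfrsf10b, −0.24 for Il6st and −0.20 for Il1r1. Il17ra, Il21 and Tnfrsf1b, also lower in Dnmt3a cells, were not called in shScr cells.

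Many of these genes lie side by side, and the positions were taken from the annotation of NCBIM37, which is the mm9 build of the files. Of the 87 symbols that could be placed, 38 formed 14 runs in which neighbours were at most 500 kb apart. In the run of Ccl2, Ccl7, Ccl11 and Ccl8 (chr11:81849073-81930301), 1 gene was higher and 2 lower in Dnmt3a cells, and 2 were higher and 1 lower in shDnmt3a cells. In that of Ccl5, Ccl9 and Ccl6 (chr11:83339280-83406589), 1 gene was higher and 2 lower in shDnmt3a cells. Both runs held genes of opposite direction within 81 and 67 kb. Over all features tested, 27.2% were called in either direction on overexpression and 45.8% on knock-down. How often other stretches of the genome hold calls in both directions was not counted. Since CC chemokines of a run resemble each other in sequence, reads could have been shared between them. Among Cxcl9, Cxcl10 and Cxcl11 (chr5:92750357-92794511), which share induction by interferon, 2 were lower in Dnmt3a cells and 1 in shDnmt3a cells. Cxcl9 was the gene of the run called in neither comparison, with 1.36, 1.31 and 1.42 CPM in Dnmt3a cells and 1.72, 1.94 and 1.25 CPM in GFP cells. Of Cxcl5, Cxcl15 and Cxcl1 (chr5:91188325-91322141), 2 were higher in shDnmt3a cells. Among the 5 genes of the IL-1 receptor run (chr1:40281925-40608550), Il1rl1 was called in both comparisons, Il1r1 on overexpression, and Il1rl2, Il18r1 and Il18rap in neither. Tnfrsf22 and Tnfrsf23 (with Tnfrsf26, chr7:150793568-150871777) were both higher in shDnmt3a cells. Ccr9, Cxcr6 and Ccr2, a run of chemokine receptors on chromosome 9, were not called in either comparison.

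**Figure D4:**
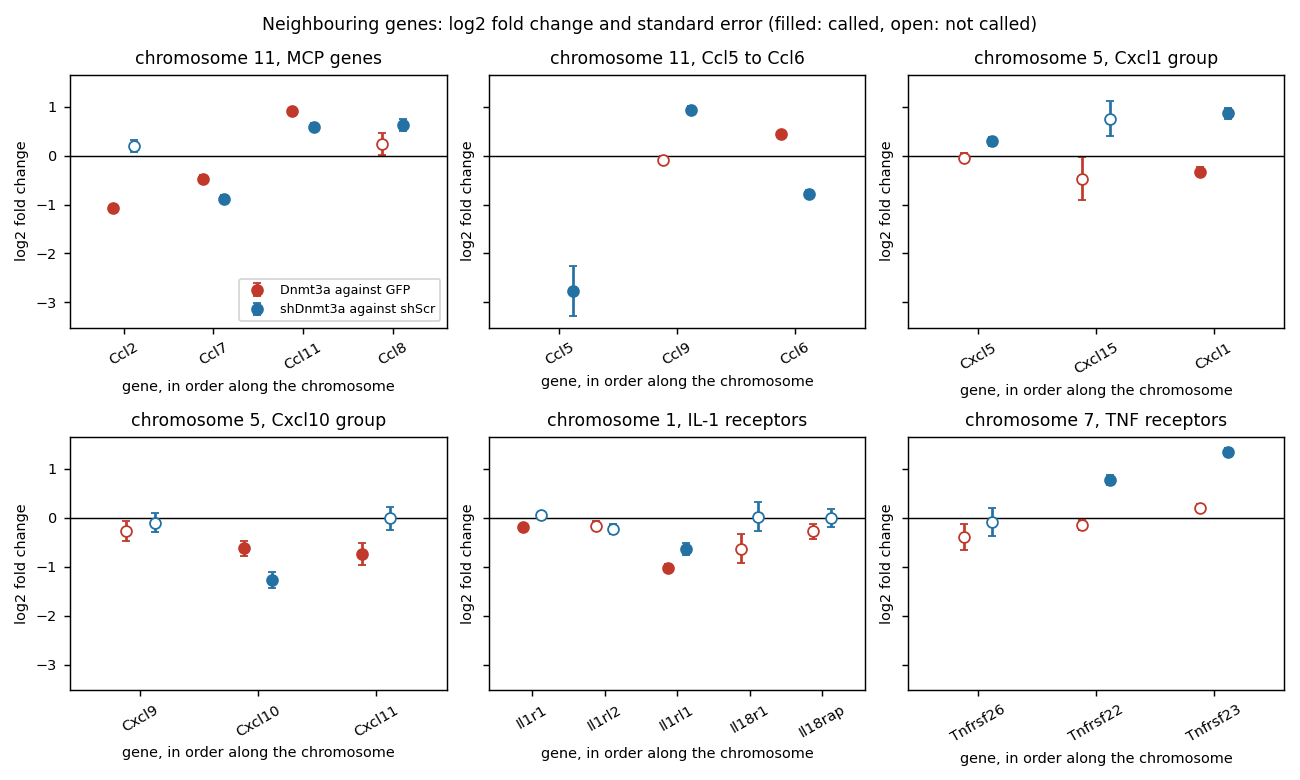
Log2 fold change with its standard error for the members of 6 runs of neighbouring genes, in their order along the chromosome and not to scale, for Dnmt3a against GFP (left point of each pair) and shDnmt3a against shScr (right point); filled points were called at an edgeR adjusted p under 0.05. The panel of Ccl2 to Ccl8 and that of Ccl5 to Ccl6 hold called genes above and below 0, and Ccl5 has no left point because it was not tested on overexpression.

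Cytokines and receptors named by other rules, and the genes that carry their signal, were counted from lists. Over all features tested, 14.3% were higher and 12.9% lower on overexpression, and 23.3% were higher and 22.5% lower on knock-down. Of cytokines and receptors outside the name rule, 3 were higher and 8 lower of 28 tested in Dnmt3a cells (median log2 fold change −0.14), and 9 were higher and 6 lower of 26 in shDnmt3a cells (0.099). The macrophage growth factor Csf1 had 69.5 ± 2.79 CPM in Dnmt3a cells, against 130.9 ± 2.77 CPM in GFP cells (SD, n = 3 each; −0.91 ± 0.041, edgeR adjusted p = 1.74e-18). It was lower on knock-down as well (−0.82 ± 0.057, edgeR adjusted p = 5.86e-10). Osmr, a partner of Il6st, was lower in Dnmt3a cells (−0.38 ± 0.040, edgeR adjusted p = 2.51e-09) and higher in shDnmt3a cells (0.30 ± 0.045, edgeR adjusted p = 2.15e-05). Lifr, another partner of Il6st, was higher in Dnmt3a cells (0.19 ± 0.041, edgeR adjusted p = 0.000467) and lower in shDnmt3a cells (−0.59 ± 0.035, edgeR adjusted p = 7.02e-11). The cytokine Mif was higher in both (0.24 ± 0.039 and 1.00 ± 0.049, edgeR adjusted p = 1.24e-05 and 2.70e-12). The controls differed in these genes too, with log2 fold changes in shScr against GFP cells of −1.15 ± 0.047 for Csf1, −1.45 ± 0.040 for Osmr, −0.58 ± 0.045 for Mif and 0.15 ± 0.037 for Lifr. Of the JAK, STAT and SOCS genes, 1 was higher and 8 lower of 23 in Dnmt3a cells (median −0.11), and 11 were higher and 3 lower of 23 in shDnmt3a cells (0.093). Stat2, which carries interferon signals to genes such as Cxcl10, was lower in both, with log2 fold changes of −0.32 ± 0.045 in Dnmt3a and −0.90 ± 0.053 in shDnmt3a cells (edgeR adjusted p = 7.39e-07 and 4.70e-11). It was thus among the 3 genes of this list lower on knock-down, whereas 11 were higher. Cish, chosen after its values were seen, had 503, 487 and 432 counts in the shDnmt3a libraries and 177, 218 and 159 in the shScr libraries. It had 766, 472 and 799 counts in the Dnmt3a libraries and 1027, 834 and 798 in the GFP libraries. Of the adaptors and kinases of IL-1, IL-17 and TNF receptors, 1 was higher and 9 lower of 32 in Dnmt3a cells (median −0.062), and 12 were higher and 5 lower of 31 in shDnmt3a cells (0.033). Tnfaip3, which restrains NF-κB signalling and is one of its targets, had log2 fold changes of −0.39 ± 0.062 in Dnmt3a and 0.66 ± 0.059 in shDnmt3a cells (edgeR adjusted p = 7.52e-06 and 2.00e-08). In shScr against GFP cells the log2 fold change was 1.03 ± 0.049 for Stat2 and −0.57 ± 0.065 for Tnfaip3.

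Since many of these genes are also expressed by leukocytes, markers of other cell types were examined. Adipocyte markers summed to 17462 to 18290 CPM in Dnmt3a, 14030 to 15011 in GFP, 12000 to 12404 in shDnmt3a and 12579 to 13455 CPM in shScr libraries. Of the 8, 7 were higher and 0 lower in Dnmt3a cells, and 3 were higher and 3 lower in shDnmt3a cells. The 6 preadipocyte or fibroblast markers summed to 421 to 435 CPM in Dnmt3a libraries, below the 482 to 524 CPM in GFP libraries, with 1 higher and 2 lower (Col1a1 and Dlk1). They summed to 527 to 589 CPM in shDnmt3a and 548 to 597 CPM in shScr libraries, with 1 higher and 3 lower, among them Ly6a (−1.35 ± 0.059, edgeR adjusted p = 6.46e-13). The 11 macrophage or leukocyte markers in the table summed to 29.5 to 30.9 CPM in Dnmt3a and 26.6 to 27.6 CPM in GFP libraries. They summed to 37.6 to 38.6 CPM in shDnmt3a and 32.8 to 35.1 CPM in shScr libraries, so both sums were higher in the manipulated cells. Of 9 tested, 2 were higher and 1 lower in Dnmt3a cells, and 4 were higher and 2 lower in shDnmt3a cells. On knock-down these moved strongly and in opposite directions, with log2 fold changes of 1.94 ± 0.11 for Cd53, 1.81 ± 0.16 for Trem2, 1.54 ± 0.15 for Cd74, 0.44 ± 0.10 for Cd14, −1.64 ± 0.076 for Mpeg1 and −0.35 ± 0.13 for Cd68. On overexpression Cd53 and Cd68 were higher (0.80 ± 0.12 and 0.55 ± 0.11) and Cd74 lower (−0.43 ± 0.13). The defining macrophage marker Emr1 had 0 counts in all 12 libraries, and the pan-leukocyte marker Ptprc had 1 to 9. Of the lymphocyte markers, Cd3e and Cd3g had at most 1 count in any library, whereas Cd8a had 17 to 41, Cd4 had 7 to 21 and Cd79a had 4 to 19, and 0 of these 3 had an unadjusted edgeR p under 0.05 in either comparison. Of 3 endothelial markers tested, 0 were called on overexpression, and 1 was higher and 0 lower on knock-down. Whether the adipocyte, preadipocyte, leukocyte or endothelial marker signal has a part in the changes of chemokine and receptor genes was not tested.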

How the data were processed

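RNA from 12 libraries of 3T3-L1 adipocytes was sequenced on a HiSeq2500 after Ribo-Zero Gold depletion with the TruSeq RNA v2 kit. The deposited values are raw read counts per feature, made by the authors. According to the submitters' processing notes they used bcl2fastq 2.17.1.14, TopHat2 2.0.14 on mm9, Picard 2.2.4, SAMtools 0.1.19 and featureCounts 1.4.6, with an annotation modified to limit overlapping transcripts. The strand setting is not stated in those sources, so antisense or overlapping genes cannot be told apart. The paper's methods give a shorter contact with virus than the labels.

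Counts were tested with edgeR 4.0.16 (R 4.3.3) by its quasi-likelihood test after TMM scaling and filterByExpr with a minimum count of 10, in 1 fit of 6 libraries for each Dnmt3a manipulation and 1 fit of 12 libraries for shScr against GFP. P-values were adjusted by Benjamini-Hochberg over all features, and an adjusted p under 0.05 was a call. Errors after ± are standard errors for log2 fold changes and SD for levels. Each standard error is the absolute log2 fold change divided by the square root of the F statistic of the edgeR test. Intervals of count ratios cover counting error only, and 0 columns belonged to no sample. The scripts were tested on simulated data.

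Members and lists were chosen with earlier results of these data known. The members named were those that were called, reached 1 in absolute log2 fold change in any comparison and had a mean of 20 counts or more, the 6 with the smallest p in each direction on overexpression and on knock-down, the 2 of highest mean CPM in each class, and Ccl2 and Il6. For the pathway lists the rule was the 2 genes with the smallest p in each list and comparison, but not all of these are described. Stat2 and Tnfaip3 were picked as examples of their lists with their values known. Every other member named, among them Cx3cl1, Cxcl11, Cxcl9, Ccl5, Ccr7, Tnfrsf18 and Tnfrsf21, was chosen after its values were seen. Alternatives were RLE size factors, DESeq2 1.42.0, no filter, a filter of 1 CPM in 3 libraries, another set of libraries in the fit, the replicate number as a block, features summed by symbol, an adjusted p under 0.01, and leaving out each library.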

Additional observations from a re-analysis of the deposited data

How the results depend on the processing

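No call on a named gene changed direction under any alternative tried: of 106 calls, 23 were lost under at least 1 of them. These rest on 1471 values, since an alternative that filtered a gene out or gave it no adjusted p was not counted as a loss. The counts of members called in each direction stayed within 1.5 times their main values under all alternatives. Leaving out 1 library at a time gave 4 to 5 higher and 16 to 19 lower on overexpression, 17 to 20 higher and 12 to 15 lower on knock-down, and 15 to 17 higher and 28 to 30 lower in shScr against GFP cells. The median over the members was −0.19 to −0.14 on overexpression, 0.0069 to 0.053 on knock-down and −0.27 to −0.19 in shScr against GFP cells under these fits. It was −0.059 on knock-down with a filter of 1 CPM in 3 libraries, which tests fewer genes. On overexpression and in shScr against GFP cells too, 1 alternative moved the median by more than its spread between libraries. The count of members higher in both comparisons was 2 with RLE size factors, 2 without a filter and 2 with the replicate block, each time with Tnfrsf23, and 1 to 2 when 1 library was left out. The count higher on overexpression and lower on knock-down was 1 to 2 when 1 library was left out. Replicate numbers did not pair the libraries, with correlations of deviations of −0.058 to 0.010 and no library correlating best with its own number. With the replicate block, 4 of the 106 calls were lost, among them Cxcr2 (edgeR adjusted p = 0.0591) and Il10rb (0.0546) on knock-down, and the members called numbered 6 higher and 19 lower on overexpression and 20 higher and 12 lower on knock-down. DESeq2 gave 16 members no adjusted p on overexpression, and in its counts of members called these stood as not called. Depth limited the sparse genes, and for members under 100 counts a missing call does not show that levels were alike.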

Other observations

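Among the cytokines outside the name rule, Csf2 and Lif were chosen after their values were seen. Csf2, which encodes a growth factor of granulocytes and macrophages, had 2, 3 and 3 counts in the Dnmt3a libraries, against 28, 14 and 24 in the GFP libraries (edgeR adjusted p = 2.87e-05). It had 0 counts in each shScr library. Lif, a cytokine that signals through Lifr and Il6st, had 24, 17 and 25 counts in the Dnmt3a libraries, against 67, 60 and 47 in the GFP libraries (log2 fold change −1.12 ± 0.24, edgeR adjusted p = 0.000359). In both genes each Dnmt3a library lay below each GFP library.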
